A study of Saccharomyces cerevisiae with 91 samples.

Results

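The chromosome ends of budding yeast (Saccharomyces cerevisiae) are listed in the deposited Micro-C gene tables as rows whose names start with TEL, followed by the chromosome number, the arm and a suffix. All such rows were taken by name, with no measured value used. They are 36 of the 6644 rows: 19 have the suffix YP (Y' elements), 14 XC (X core elements), 2 XR (X element repeats) and 1 TR (a telomeric repeat). The 19 Y' rows are 4783 to 6970 bp long, the 14 X core rows 294 to 564 bp, the 2 X repeat rows 380 and 389 bp and the telomeric repeat row 173 bp.

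A yeast chromosome ends in an array of short TG-rich repeats, which telomerase maintains and the protein Rap1 binds. Inward of it lies the X core element, found at every natural end, with binding sites for the origin recognition complex and the factor Abf1, and at some ends a set of small X repeats between core and telomere. Some ends also carry Y' elements, long repeats that encode the YRF1 helicases and that spread when telomerase is lost. The Sir proteins spread from the telomere over nucleosomes whose H4 tail is deacetylated at lysine 16 and silence nearby genes, with strong silencing near X and weak silencing inside Y'. Y' copies are close to identical, so a short read often matches several of them, and a family sum is less open to read placement than a single row.

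In Micro-C, crosslinked chromatin is cut between nucleosomes by micrococcal nuclease and neighbouring ends are ligated, so that read pairs join nucleosomes that lay near each other. Cells grew in rich medium (YPD) at 30 °C to mid-log phase. The 30 to 32 °C table holds BY4741 wild type as the control, the mutants labelled top1d (topoisomerase I), rnh201d (a subunit of RNase H2), rpd3d (a histone deacetylase), rtt109d (the H3K56 acetyltransferase) and med1d (a Mediator subunit), the H4 mutants H4K16Q, H4R23A and H4d4-14, and the temperature-sensitive ssu72-2 (an RNA polymerase II tail phosphatase) at 32 °C. BY4741 treated with 1.5 mM diamide for 30 min (an oxidant of thiols) or with 3 ug/mL thiolutin for 45 min (an inhibitor of transcription) completes it. The 37 °C table holds BY4741 and the temperature-sensitive rsc8-21 and sth1-2 (both in the RSC chromatin remodeller, Sth1 being its ATPase), scc2-4 (the cohesin loader) and rgr1-100 (a Mediator subunit, whose strain label reads rgr1-97), all kept at 37 °C for 90 min. The ssu72-2 column is read against BY4741 at 30 °C, and the H4 mutants against BY4741, although a plasmid-borne wild-type H4 strain is among the samples. The number of Y' copies in each strain was not measured, so copy number and signal per copy cannot be told apart in the family sums.

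Each table gives 1 pooled column per group for a long and a short fragment signal, with 12 columns at 30 to 32 °C and 5 at 37 °C, so no replicate check exists for any gene-table value. Values came out as whole multiples of 1 read within 0.1 of a read in 100% of cases in every column. Long reads numbered 494514 to 8651522 per column at 30 to 32 °C and 837623 to 2027889 at 37 °C, and short reads 6268645 to 86007371 and 10262138 to 29483113. Levels are reads per 1000000 reads in all rows that are neither telomeric nor mitochondrial (RPM below), intervals are exact 95% intervals that cover counting error only, and all groups of a table share 1 control column. On the deposited scale the other rows were themselves shifted, from a median log2 difference of -1.39 (H4d4-14, long) to 0.92 (scc2-4, long), so each difference below is relative to them. Short signal over the targeted gene was 0.920% of the control for RTT109 in rtt109d, 4.99% for RNH201 in rnh201d and 6.65% for MED1 in med1d, but 52.1% for TOP1 in top1d and 89.5% for RPD3 in rpd3d, so the column labelled rpd3d goes against its label and top1d in part. The H4 genes HHF1 and HHF2 were at 1.39% to 15.2% in the H4 mutants. LYS2, a gene their labels do not name, was at 0.062% in H4R23A, 8.79% in H4K16Q and 10.1% in H4d4-14. These columns thus differ from BY4741 beyond the H4 genes, and the part of this in their Y' values was not tested. In ssu72-2, mitochondrial rows took 0.0019% of short reads against 0.818% in BY4741, and the part of this in its other values was not tested.

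In BY4741 the Y' rows carried nearly all telomere reads, 99.96% of the long and 98.36% of the short ones, and per length their median was above that of the other rows. Their median level was 358 long RPM per kb, against 182 in 82 other rows of like length and 60.7 in all other rows. The median short level was 216 RPM per kb, against 104 and 95.2. TEL05R-YP had 35120 long and 203352 short reads in BY4741, TEL05L-YP 39204 and 192939, and TEL12L-YP1 39126 and 163771, the most of any telomere rows over both signals. Long signal per kb was highest at TEL12L-YP1 (832) and TEL08L-YP (822). At the low end, TEL04R-YP had 13.0 long and 23.3 short RPM per kb, and TEL12L-YP2, the second Y' row of the left arm of chromosome XII, had 2 long reads and 3442 short ones (0.0434 and 7.42 RPM per kb). Levels thus spread 49.6-fold over the Y' rows in short signal. The sources used here do not say how a read that matches several copies was placed.

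X core rows had less short signal per length than the median of the other rows. Their median short level in BY4741 was 38.3 RPM per kb, from 7.78 at TEL12L-XC to 77.2 at TEL15R-XC, so that every X core row lay below the median of 95.2 over all other rows. The 3 most read were TEL15R-XC (3504 short reads), TEL03R-XC (3299) and TEL10R-XC (3023). The 2 X repeat rows had 111 (TEL02L-XR, 3600 reads) and 109 (TEL04R-XR, 3440 reads) short RPM per kb. The 14 X core rows together had 116 long reads and the 2 X repeat rows 26 in the deepest column, too few for their long signal to be followed by row. The telomeric repeat row TEL14L-TR was listed at 0 in both signals of every column. With a floor of 3 reads, that allows a level of up to 0.0360 short and 0.363 long RPM in BY4741.

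Y' signal stood highest against its control in sth1-2. The 19 Y' rows together had a long level of 61389 RPM against 35272 in BY4741 at 37 °C (1.74-fold, log2 difference 0.80, interval 0.78 to 0.81) and a short level of 38240 RPM against 18018 (2.12-fold, log2 1.09, interval 1.08 to 1.09). In the short signal all 19 Y' rows were higher in sth1-2, and 18 of them lay between 0.89 (TEL04R-YP) and 1.15 (TEL12R-YP1) on the log2 scale. The exception was TEL12L-YP2, with 182 reads against 464 in BY4741 (0.20, interval -0.06 to 0.45). TEL05R-YP, the most read, had a short level of 3784 RPM in sth1-2 and 1784 in BY4741 at 37 °C. The long signal was less even, from 0.38 at TEL08L-YP (4783 against 3680 RPM) to 1.88 at TEL04R-YP (218 against 59.2 RPM). As deposited, without scaling to the other rows, the short Y' sum was 0.30 higher on the log2 scale and the other rows had a median of -0.86, so the 2-fold size is a difference from the rest of the genome.

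The other RSC mutant and the cohesin loader mutant had the same sign at smaller size. In rsc8-21 the Y' sum was 0.30 higher in long and 0.51 higher in short signal (log2, intervals 0.28 to 0.32 and 0.50 to 0.52). In scc2-4 it was 0.28 and 0.47 higher (0.26 to 0.29 and 0.46 to 0.47). In rgr1-100 it was 0.07 and 0.05 higher. The lone Y' row below its control in rsc8-21 short signal was TEL12L-YP2, at -0.27 with an interval from -0.54 to 0.00. These 4 columns share the BY4741 column at 37 °C.

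**Figure D1:**
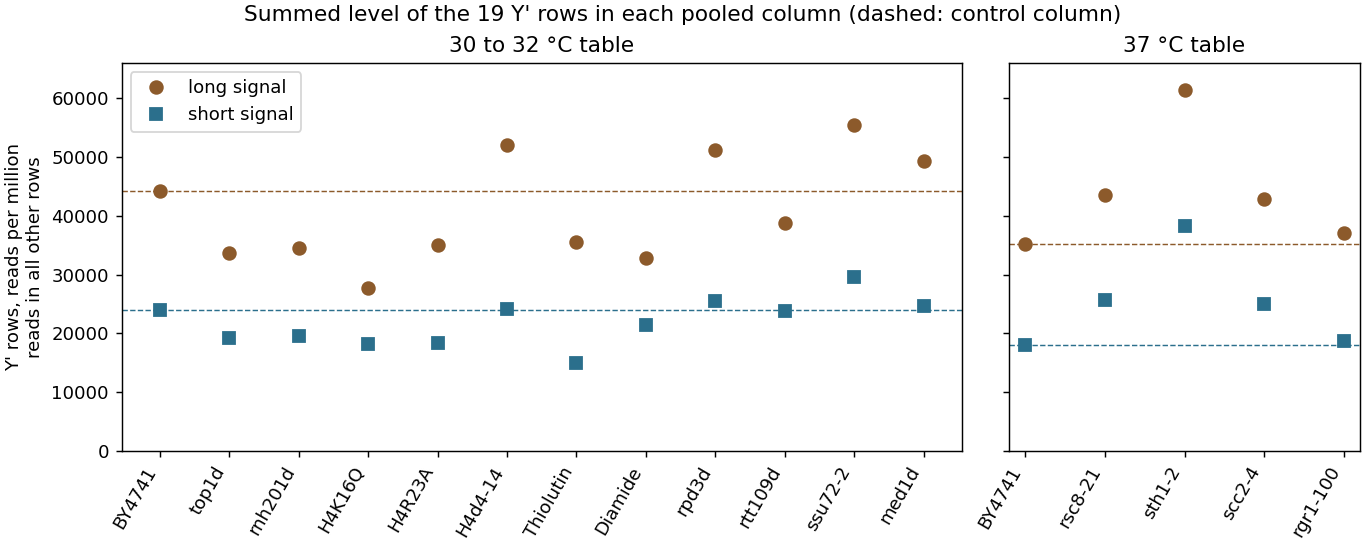
Summed level of the 19 Y' rows in each pooled column, in RPM (circles, long signal; squares, short signal; dashed lines, the control column of each table; no error bars, since each column is 1 pooled value). At 37 °C sth1-2 stands at 61389 long and 38240 short against 35272 and 18018 in BY4741, and at 30 to 32 °C H4K16Q has the lowest long value (27685) and Thiolutin the lowest short value (14877).

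Among the 30 to 32 °C groups, Y' signal was higher than in BY4741 mainly in ssu72-2, at 0.33 in long and 0.30 in short signal (log2, 1.25-fold and 1.23-fold). In the short signal 18 of 19 Y' rows were higher in ssu72-2, with TEL12L-YP2 at -0.50. Smaller positive differences stood in the column labelled rpd3d (0.21 long, 0.09 short), H4d4-14 (0.24 and 0.00) and med1d (0.16 and 0.03). Y' signal was lower in 7 groups in both signals. H4K16Q, the substitution at the residue that Sir2 deacetylates, had the lowest long sum, 27685 against 44203 RPM in BY4741 (log2 -0.68, interval -0.69 to -0.66), and -0.40 in the short signal. H4K16Q has 1 replicate among the samples, and the gene tables hold no column of the plasmid-borne wild-type H4 strain. Thiolutin had the lowest short sum, 14877 against 24038 RPM (-0.69, interval -0.70 to -0.69), and -0.32 in the long signal. A further 4 were Diamide (-0.43 long, -0.17 short), top1d (-0.39 and -0.33), rnh201d (-0.36 and -0.30) and H4R23A (-0.33 and -0.38). In rtt109d the Y' sum was -0.19 in long and -0.01 in short signal, with both intervals below 0.

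The X core sum and the Y' sum differed from their controls by unequal amounts in most groups, and in some by opposite signs. In the short signal the 14 X core rows together were 0.48 higher than BY4741 in rtt109d (log2, interval 0.45 to 0.52), 0.42 in top1d, 0.41 in rnh201d and 0.32 in H4K16Q, while the Y' sum was below its control in all 4. In sth1-2 they were 0.32 higher, in rgr1-100 0.26 and in med1d 0.27. They were lower in H4R23A (-0.13), Thiolutin (-0.09), ssu72-2 (-0.09) and rsc8-21 (-0.07), where Y' was lower in H4R23A and Thiolutin and higher in ssu72-2 and rsc8-21. The difference between the Y' and the X core value of a group had an interval above 0 in 5 of 15 groups, below 0 in 9 and around 0 in H4d4-14. It was most positive in sth1-2 (0.76, interval 0.70 to 0.82) and rsc8-21 (0.58), and most negative in top1d (-0.75, interval -0.79 to -0.70), H4K16Q (-0.72) and rnh201d (-0.71). The X repeat pair was 0.62 higher in med1d (interval 0.52 to 0.71) and 0.39 lower in H4K16Q, with 1105 and 770 reads. In H4K16Q the pair differed from each other: TEL04R-XR was at -0.83, the lowest short value of any row there.

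Row by row, a row was called past 2-fold where group and control together had at least 20 reads, and the same rule over all other rows gives the background. In the short signal 34 or 35 of the 36 rows had that many reads in each comparison, and in the long signal 18 to 20. In sth1-2, 17 of 34 telomere rows were called higher in short signal, all of them Y', against a background of 4.25% of other rows called in either direction. In its long signal 6 of 18 were called higher (TEL12R-YP1, TEL14L-YP, TEL15R-YP, TEL16L-YP, TEL04R-YP and TEL07R-YP), against 5.59%. The remaining 37 °C groups had 0 telomere rows called in either signal: rsc8-21, where the background was 2.82% in long and 1.9% in short signal, scc2-4, with 1.6% and 1.39%, and rgr1-100, with 1.87% and 0.0611%.

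At 30 to 32 °C at most 2 of 35 telomere rows were called in any short comparison, mostly X core rows with few reads. Short calls were 2 lower in Thiolutin (background 1.36%) and in Diamide (1.23%), in both TEL12L-YP2 and TEL05L-XC. In ssu72-2 they were 2 lower, TEL13R-XC and TEL05L-XC (2.13%). In rtt109d there was 1 higher, TEL10R-XC, and 1 lower, TEL05L-XC (0.564%). TEL05L-XC was also the row called in med1d (0.762%) and in H4d4-14 (0.411%). None was called in top1d (0.259%), H4K16Q (0.655%), H4R23A (0.183%), the column labelled rpd3d (0.183%) or rnh201d (0.183%).

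Long calls at 30 to 32 °C rested on a handful of reads. TEL15R-XC, with 21 long reads in BY4741, was called lower in H4K16Q (1 read, background 3.06%), Thiolutin (1 read, 9.29%), ssu72-2 (1 read, 4.45%), med1d (0 reads, 6.4%) and rnh201d (0 reads, 1.72%). TEL10R-XC was called higher in ssu72-2 on 7 reads against 16 in BY4741. The counting intervals of all of these calls reached across 0. An interval that did not was found at 2 X core rows under the 20-read minimum, TEL01L-XC in ssu72-2 (6 reads, log2 2.51, interval 0.53 to 4.56) and TEL13R-XC in med1d (3 reads, 2.54, interval 0.02 to 4.55). The X core sum in Thiolutin, on 5 long reads, was at -1.38 (interval -3.03 to -0.11). No long call was made in top1d (3.12%), H4R23A (2.48%), Diamide (7.53%), the column labelled rpd3d (4.89%), rtt109d (3.05%) or H4d4-14 (4.33%).

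**Figure D2:**
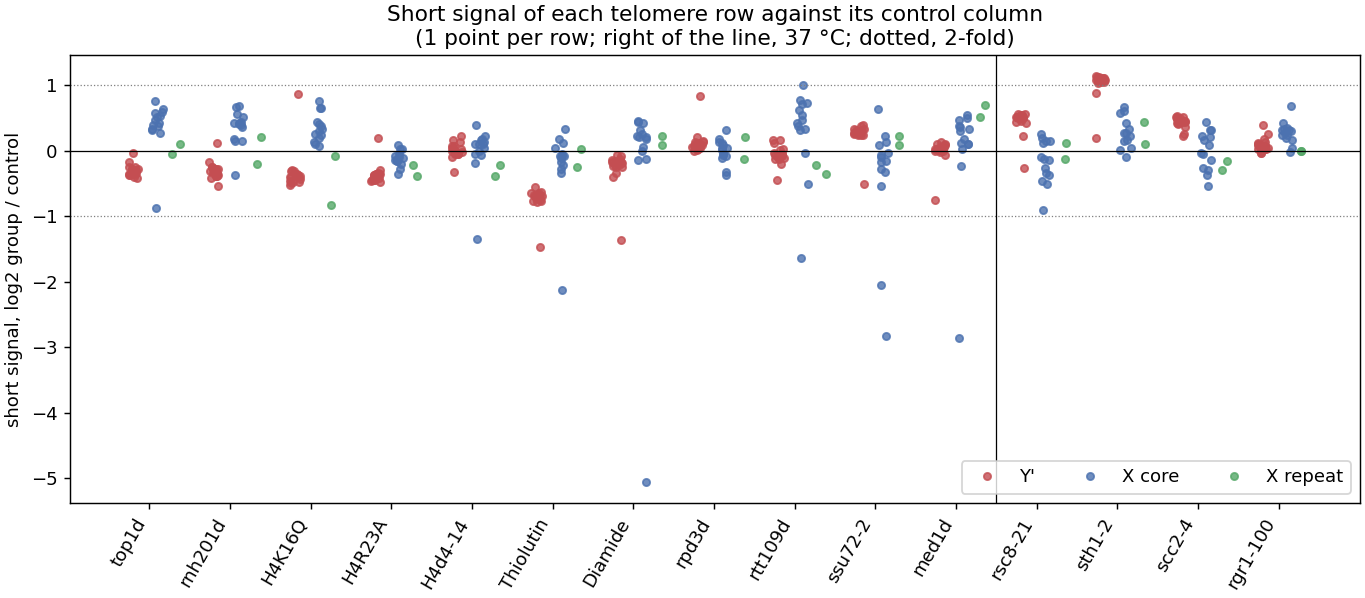
Short signal of each telomere row as log2 of group over control, 1 point per row with at least 20 reads over both columns (red, Y'; blue, X core; green, X repeat; dotted lines, 2-fold; right of the vertical line, 37 °C). The Y' rows of sth1-2 lie together near 1, apart from TEL12L-YP2 at 0.20, and single X core rows lie far below the rest, down to -5.06 for TEL05L-XC in Diamide.

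TEL05L-XC, the shortest X core row at 294 bp, ranged more widely between columns than any other. It had 284 short reads in BY4741, 11.6 RPM per kb. The level was 19.6 in H4K16Q, 12.4 in the column labelled rpd3d, 9.05 in H4R23A, 9.00 in rnh201d and 6.34 in top1d. It was 4.55 in H4d4-14 (22 reads), 3.75 in rtt109d (21 reads), 2.80 in ssu72-2 (15 reads), 2.65 in Thiolutin (9 reads), 1.59 in med1d (4 reads) and 0.347 in Diamide (1 read). The Diamide value was -5.06 on the log2 scale with an interval from -10.37 to -2.57, and med1d was at -2.86 (-4.75 to -1.49). All 5 columns at 37 °C were low, from 0.344 in sth1-2 (1 read) to 3.01 in rgr1-100 (20 reads), with 1.88 in BY4741 (16 reads). The Y' row beside it, TEL05L-YP, was at -0.07 in Diamide and 0.01 in med1d. YEL074W, the open reading frame listed before TEL05L-YP, had 815 reads in BY4741 and was lower in 5 of the 6 groups where TEL05L-XC was called: ssu72-2 (-1.39, 68 reads), Diamide (-1.06, 46 reads), H4d4-14 (-0.81), Thiolutin (-0.61) and rtt109d (-0.47). In med1d it stood at -0.01. YEL073C (chromosome V, 7230 to 7553), the next row inward, was at 0.34 in Diamide.

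TEL12L-YP2 was the Y' row that most often went its own way. Against 3442 short reads in BY4741 it had 172 in Thiolutin (log2 -1.47, interval -1.70 to -1.25) and 158 in Diamide (-1.36, interval -1.60 to -1.13). It was 0.86 higher in H4K16Q (898 reads, interval 0.75 to 0.97) and 0.83 higher in the column labelled rpd3d (445 reads), while the Y' sums of these 2 columns were at -0.40 and 0.09. TEL10R-XC, called in rtt109d, had 1389 reads there against 3023 in BY4741 (1.00, interval 0.91 to 1.10). Its neighbour COS5 (chromosome X, 742848 to 743999), a subtelomeric gene of the DUP380 family listed before it, was at 0.15. YJR162C, listed after it, was at 1.16 (1171 against 2291 reads). The next rows listed, YKL225W and TEL11L-XC, belong by name to the left arm of chromosome XI and were at 0.88 and 0.78. The rise was thus not confined to TEL10R-XC.

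The loss at TEL13R-XC in ssu72-2 was shared by the rows around it at the right end of chromosome XIII. TEL13R-XC had 41 short reads in ssu72-2 and 1333 in BY4741 (log2 -2.83, interval -3.31 to -2.38). YMR326C, listed after it, had 88 against 4461 (-3.47). PAU19 (YMR325W, chromosome XIII, 922641 to 923015), a seripauperin, was at -1.30, and YMR324C beside it at -2.62 (64 against 1798 reads). Further inward the differences were small: ERR3 (YMR323W, an enolase-related gene) at -0.52, SNO4 (YMR322C) at -0.39 and YMR320W at -0.34. In rtt109d YMR326C was at -1.63, YMR324C at -1.56, PAU19 at -0.80 and TEL13R-XC at -0.51. Seripauperins and ERR genes have close copies at other ends, so their rows can hold reads of these. Whether the DNA of this end was present in the ssu72-2 cells was not tested.

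**Figure D3:**
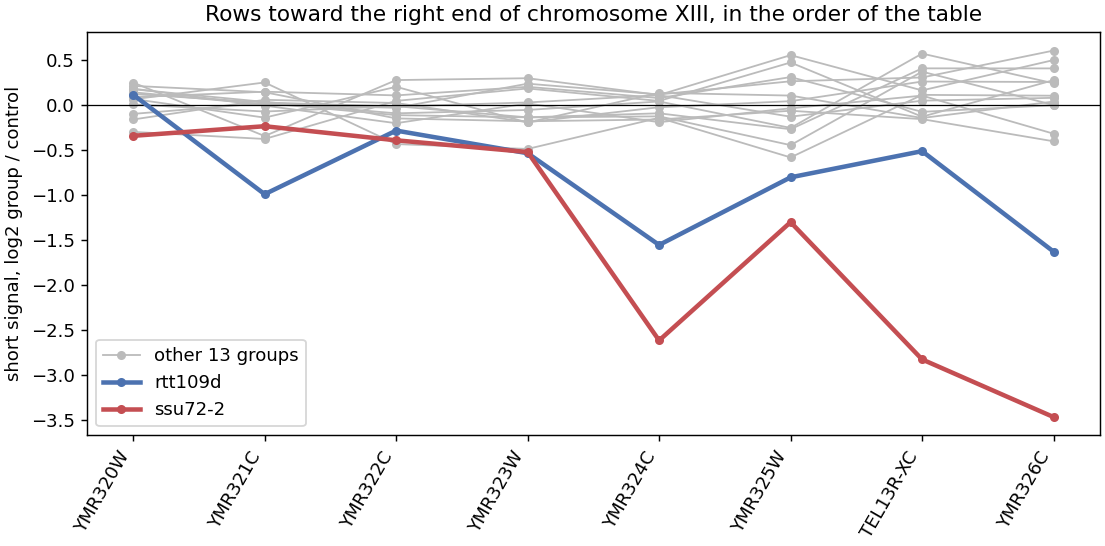
Short signal of the rows listed toward the right end of chromosome XIII, in table order, as log2 of group over control (red, ssu72-2; blue, rtt109d; grey, the other 13 groups; lines join the rows of 1 column). The ssu72-2 line falls from -0.52 at YMR323W to -2.62 at YMR324C and -3.47 at YMR326C, and rtt109d lies below the grey lines at YMR321C, YMR323W, YMR324C, YMR325W, TEL13R-XC and YMR326C.

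The ratio of long to short signal was also read, in which an equal change in the number of every copy cancels. In BY4741 the 18 well-read Y' rows had a median log2 ratio of long to short reads of -2.64, next to -2.63 in 82 other rows of like length. The Y' rows were spread more widely, from -4.17 (TEL04R-YP) to -1.19 (TEL08L-YP), where the 5th and 95th percentiles of the other rows were -2.996 and -2.185. Against the control and relative to all other rows, the ratio of the Y' sums was 0.38 higher in Thiolutin (log2, interval 0.36 to 0.39), 0.23 in H4d4-14, 0.13 in med1d and 0.12 in the column labelled rpd3d. It was lower in sth1-2 (-0.29, interval -0.30 to -0.27), H4K16Q (-0.28), Diamide (-0.26), rsc8-21 (-0.21), scc2-4 (-0.19) and rtt109d (-0.18). In the other 5 groups it lay between -0.06 and 0.05. In BY4741 at 37 °C the median Y' ratio was -3.129, against -3.153 in other rows of like length. It was -2.599 against -2.549 in sth1-2, -3.125 against -3.082 in rsc8-21 and -2.881 against -2.873 in scc2-4. The 37 °C drops were thus hardly seen against rows of like length. The Y' median was further below these rows in H4K16Q (-2.924 against -2.515), rtt109d (-3.673 against -3.383), top1d (-3.423 against -3.266) and Diamide (-2.337 against -2.195). The spread among the Y' rows narrowed in sth1-2: their ratios ran from -5.06 to -1.44 in BY4741 at 37 °C and from -3.42 to -1.47 in sth1-2. The other rows of like length moved alike at the low end, from a lowest value of -4.90 to -3.41.

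The authors' deposited 2D score, whose computation the sources used here do not give, covered only the 19 Y' rows of the telomere rows. Among other rows of like length and level, it followed log2 of long over short reads with a slope of 0.972 to 1.05 and r of 0.955 to 0.977 across the 17 columns, and so is on that log2 scale. The X and telomeric repeat rows were listed at 0 in the 30 to 32 °C table and not listed in the 37 °C table. In BY4741 the Y' scores had a median of 0.28, against 0.03 over 4734 other scored rows. They ranged from -4.98 (TEL12L-YP2) to 1.87 (TEL08L-YP). TEL08L-YP had the highest Y' score in 17 of 17 columns and TEL12L-YP2 the lowest in 16 of 17, the exception being rgr1-100, where it was TEL04R-YP.

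The median difference of the Y' score from the control was largest in sth1-2, at 0.94, with 18 of 19 rows higher, where the median over the other rows was 0.21 and 72.35% of them were higher. It was 0.31 in rsc8-21 (16 of 19 higher, other rows 0.04) and 0.29 in scc2-4 (18 of 19, other rows 0.07). At 30 to 32 °C the Y' rows were lower in most groups: -0.61 in rtt109d (17 of 19 lower, other rows -0.12), -0.57 in top1d (18 of 19, -0.05), -0.56 in Diamide (17 of 19, while the other rows were at 0.15), -0.47 in H4K16Q (17 of 19, 0.04) and -0.45 in Thiolutin (17 of 19, -0.08). In med1d (-0.35) and H4d4-14 (-0.30) the other rows were almost as low, at -0.29 and -0.28. The column labelled rpd3d was the one 30 to 32 °C column with higher Y' scores (0.15, 15 of 19 rows) and lower scores elsewhere (-0.17). In sth1-2, rsc8-21 and scc2-4 the score was higher while the ratio of the Y' sums relative to all other rows was lower. In Thiolutin, H4d4-14 and med1d the score was lower while that ratio was higher. Unscaled, the log2 ratio of Y' long to short reads was -2.478 in sth1-2, -2.735 in scc2-4 and -2.917 in rsc8-21. BY4741 at 37 °C had -2.916. The unscaled ratio was -4.015 in H4d4-14, -3.168 in med1d and -2.386 in Thiolutin, against -2.452 in BY4741. The opposite signs thus depend on the scaling in sth1-2, scc2-4, H4d4-14 and med1d. In Thiolutin they remained without it, and in rsc8-21 the unscaled ratio hardly differed from its control.

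**Figure D4:**
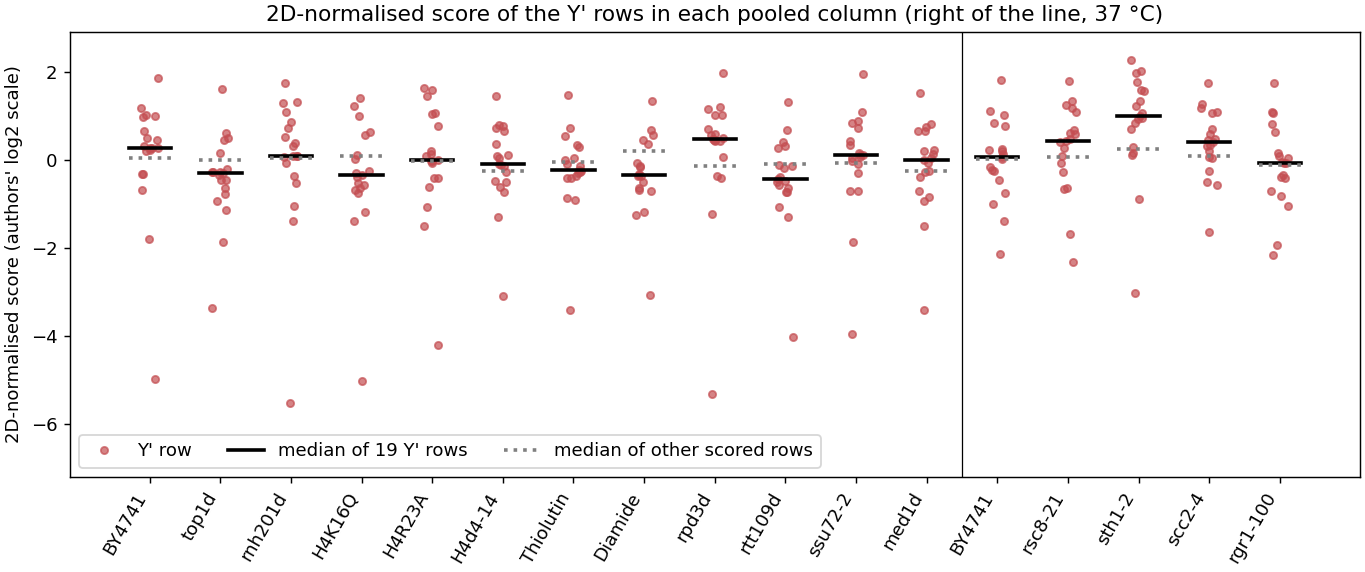
The authors' 2D-normalised score of each of the 19 Y' rows in each pooled column (points; black line, their median; dotted grey line, the median of the other scored rows; right of the vertical line, 37 °C). The Y' median is 1.01 in sth1-2 and 0.07 in BY4741 at 37 °C, and the point far below the others in most columns is TEL12L-YP2.

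Genes inside or beside the elements were read from lists chosen with earlier results of these data known. The 8 YRF1 genes, the helicase frames inside Y', share their reads with the Y' rows and are no separate evidence. In sth1-2 they were 1.00 (YRF1-1, chromosome IV, 1526321 to 1531711) to 1.17 (YRF1-5, chromosome XII, 1072508 to 1077898) higher in short signal, 7 of 8 past 2-fold. Their short median was -0.75 in Thiolutin, -0.51 in H4K16Q and 0.26 in ssu72-2. The 11 COS genes found of the list of subtelomeric DUP380 genes had a short median of 0.04 in sth1-2, where all other rows had -0.08. Of them 0 of 11 were past 2-fold, where 4.25% of other rows were, so this count is near the background. The 24 seripauperins, stress-induced cell wall proteins coded mostly near chromosome ends, had medians of 0.40 in sth1-2 (91.67% higher) and 0.45 in rsc8-21, and -0.46 in Thiolutin, with 0 of 24 past 2-fold in each. Shares of 4.25%, 1.9% and 1.36% of all other rows were past 2-fold in these groups, so 0 of 24 is near the background. The 20 silencing and telomere factors, genes spread over the genome, stood at -0.21 in sth1-2. All other rows had a median of -0.08 in sth1-2, where 39.62% were higher, -0.08 in rsc8-21 and 0.07 in Thiolutin.

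Replicates are kept in 1 table, which counts the pairs whose ends fall on either side of a nucleosome-depleted region (NDR), for 6719 NDRs. Of these, 30 lie within 6 kb of the left end of the 10 chromosomes whose left arm has a Y' row, and so in or next to Y' sequence, and they share reads between ends as the Y' rows do. Here 49 replicates had 84223 to 2299974 pairs. At these 30 NDRs BY4741 had 10538 to 23465 pairs per 1000000 NDR-spanning pairs (PPM below), with a median of 15878 over 16 replicates. The 3 ssu72-2 replicates had 34356, 24814 and 27834 PPM, each above every BY4741 replicate. The mean log2 share was 14.81 ± 0.24 (SD, n = 3) in ssu72-2 and 13.93 ± 0.32 (SD, n = 16) in BY4741, a difference of 0.88 (exact two-sided permutation test, p = 0.00206, the smallest this design can give, and 0.0206 after Benjamini-Hochberg adjustment over 10 groups). With sizes scaled by edgeR's trimmed mean the difference was 0.86 but the adjusted exact p was 0.186. The 1 wild-type library grown at 32 °C had 12347 PPM (exact binomial interval 12025 to 12675), at the low end of BY4741. Some column headers carry a further number, whose meaning the sources used here do not give. Against the BY4741 replicate with the same header number, the 3 ssu72-2 replicates were 1.07, 0.61 and 0.77 higher.

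In edgeR's quasi-likelihood test with Benjamini-Hochberg adjustment over all NDRs, 10 of the 30 rose and 0 fell in ssu72-2, where 4.29% of all NDRs were called. All 3 NDRs of the left end of chromosome II rose (positions 5717, 5069 and 3925), with log2 differences of 1.03 to 1.14. At position 5717 the ssu72-2 replicates had 3462, 1947 and 2581 PPM, all above the BY4741 range of 755 to 1680. The lowest adjusted p of the 30 was at chromosome X, position 2299, with a log2 difference of 1.04 ± 0.22 (SE, adjusted edgeR p = 0.000731), with 130, 99.3 and 96.0 PPM against 31.3 to 102 in BY4741, where the ranges overlap. A further 2 calls were on chromosome VIII (positions 2648 and 2314), 2 on chromosome XIII (5323 and 3873), 1 on VI (4887) and 1 on IX (2312, 0.99 ± 0.23 SE, adjusted edgeR p = 0.00373). The ranges also overlapped at 4887 on VI, where the lowest ssu72-2 replicate had 453 PPM and the highest BY4741 replicate 633. They did so at 5323 on XIII (542 against 660) and at 2312 on IX (86.5 against 136). At the remaining calls every ssu72-2 replicate lay above the BY4741 range. Of the 6 NDRs at the left end of chromosome XII none was called, and they ran from -0.83 to 0.81. The count was 0 without ssu72-2 replicate 1 (1.74% of all NDRs called), 16 without replicate 2 (4.6%) and 5 without replicate 3 (3.74%). It was 20 without BY4741 replicate 17, the control replicate with the highest share, where 6.03% of all NDRs were called. Median log2 over the 30 was 0.86, and over all NDRs -0.02.

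Without a block, edgeR called no NDR of the 30 in the other 9 groups. The background was 4.76% in Diamide, 3.59% in Thiolutin, 0.804% in rtt109d, 0.104% in med1d, 0.0446% in rnh201d, 0.0298% in H4R23A, 0.0298% in H4d4-14, and 0% in top1d and in rpd3d. Of the 30, 4 had an unadjusted edgeR p under 0.05 in rtt109d, all higher and on chromosome XII, 3 in Diamide and 2 in Thiolutin, all lower and on chromosome XII, 1 higher in H4d4-14 and 0 in the rest. DESeq2 also called 0 in each. With the header number as a block, edgeR called 16 higher in H4d4-14, 13 higher in med1d, 7 higher in rtt109d and 3 lower in Thiolutin, where 7.41%, 6.91%, 1.83% and 0.714% of all NDRs were called. With the replicate number as a block it called 2 lower in Thiolutin and 1 lower in Diamide, where 2.41% and 2.55% of all NDRs were called. The share in rtt109d was 12411, 10321 and 9103 PPM, 0.57 below BY4741 on the log2 scale (exact two-sided permutation p = 0.0124, adjusted 0.0619). The 5 NDRs inside the ribosomal DNA repeat took 34.68% to 52.93% of pairs in rtt109d and 12.24% to 27.99% in BY4741. Without them in the denominator the rtt109d difference was -0.0017, and with trimmed-mean sizes it was 0.17, so its direction depends on the denominator. The ssu72-2 difference was then 0.75 (adjusted exact p = 0.0413), with the ranges overlapping. In the remaining 8 groups the share differed from BY4741 by -0.12 to 0.26 (adjusted exact p of 0.915 or more), and their ranges overlapped it. Within header numbers H4d4-14 was 0.36 and 0.39 higher, the rpd3d replicates 0.17 and 0.20 higher, Diamide was at -0.16 and -0.15, Thiolutin at -0.11 and -0.33, and med1d at 0.44, 0.44 and -0.04. H4R23A was at 0.10 and -0.11, rnh201d at 0.13 and -0.02, and top1d replicate 2 at 0.15. The rtt109d values within header numbers were -0.16 and -0.84, and 0.52 and 0.0018 without the ribosomal DNA.

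At 37 °C the NDR table gives 1 column per group and no test. sth1-2 had 21230 PPM at the 30 NDRs (exact binomial interval 20969 to 21494) against 17063 (16896 to 17231) in BY4741, 0.32 higher on the log2 scale, where the short Y' sum of the gene table was 1.09 higher. rgr1-100 was 0.19 higher, rsc8-21 was at -0.07 and scc2-4 at -0.06. The ribosomal DNA took 18.34% of pairs in BY4741 at 37 °C, 25.25% in sth1-2 and 27.07% in rsc8-21. Without it sth1-2 was 0.44 and rgr1-100 0.12 higher, scc2-4 was at -0.04, and rsc8-21 turned to 0.09.

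**Figure D5:**
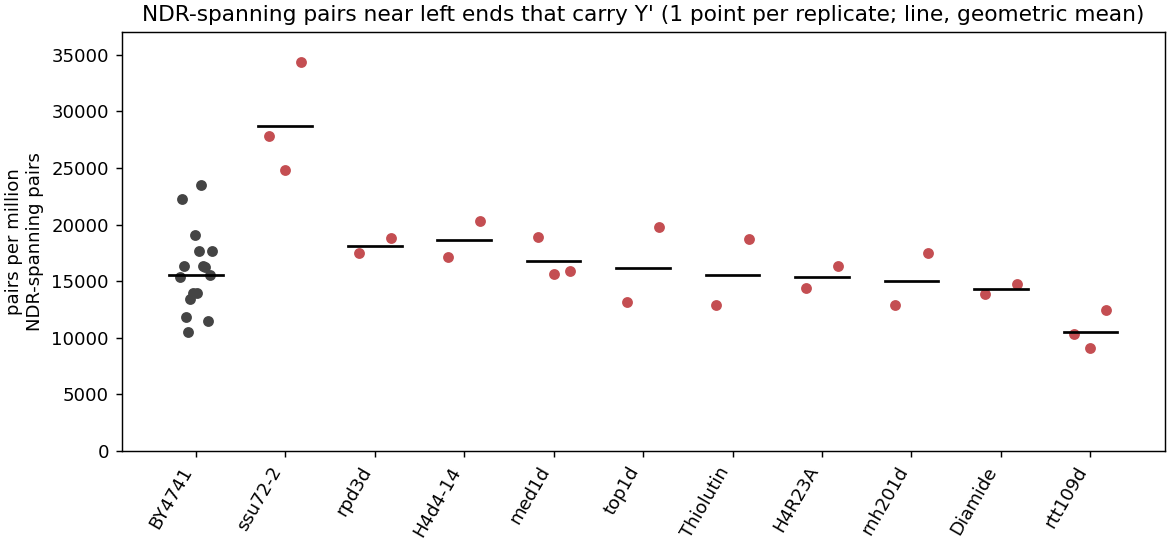
Pairs at the 30 NDRs near Y'-bearing left ends, in PPM of all NDR-spanning pairs (1 point per replicate; horizontal lines, the geometric mean of a group). The 3 ssu72-2 replicates (24814 to 34356) lie above all 16 BY4741 replicates (10538 to 23465), and 2 of the 3 rtt109d replicates (9103 and 10321, with the other at 12411) lie below the lowest BY4741 replicate.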

How the data were processed

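The authors deposited the gene-table signal as normalised values with 1 pooled column per group, per the file headers. Each value is a whole multiple of the value of 1 read, from which reads were recovered. The cut between long and short fragments, the placement of reads that match several copies and the authors' normalisation are not given in the sources used here. The authors' deposited 2D score was used as given, and its log2 scale was checked by its slope on log2 of long over short reads among other rows binned by length and level. The submitters' processing notes name Bowtie2, CASAVA 1.8.2 and the sacCer3 build. In the 37 °C table the sheets named long and short were exchanged, because over 6580 rows the values under the name long had r = 0.984 with short and 0.885 with long signal of the 30 to 32 °C table, while those under the name short had 0.922 and 0.989. Signals were divided by the column's sum over rows that are neither telomeric nor mitochondrial. A row was called past 2-fold with at least 20 reads over both columns. With 1 column per group no count test was possible on the recovered reads.

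Per the file headers, the authors deposited raw counts of NDR-spanning read pairs per replicate. Of its sample columns 63 were matched to samples or groups by name and 20 were not used. Repeat libraries of a replicate were summed. Counts were fitted with edgeR 4.0.16 (trimmed-mean scaling, filterByExpr, quasi-likelihood test, 1 term for group) in R 4.3.3, with DESeq2 1.42.0 as an alternative. Shares were tested with exact two-sided permutation tests (scipy 1.17.1). The edgeR step was tested on simulated data with known changes. Left ends only were used, because chromosome lengths were not at hand. The labels do not say whether replicates were separate cultures, and the p-values therefore rest on a spread that may be technical. Deviations of samples with the same replicate number correlated at -0.49 to 0.54 over 20 pairs. They were taken from group means, so in a group of 2 replicates they mirror each other. The range therefore cannot decide whether the numbers pair samples. Gene names and coordinates are those of RefSeq, assembly R64, matched by locus tag.

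The rule for naming with values covered the 3 most read rows of each family, the highest and lowest row of each comparison and the YRF1 genes. Not all highest and lowest rows were given with the results. TEL14L-XC was such a row, the lowest in short signal in rsc8-21 (-0.90), scc2-4 (-0.53) and sth1-2 (-0.10). Rows and genes beside a called X core row were added after their values were seen. The members and lists were chosen with earlier results of these data known.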

Additional observations from a re-analysis of the deposited data

How the results depend on the processing

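Of 662 values recomputed under an alternative, 441 kept their direction and their side of the threshold or moved by less than their error, and 221 did not. Counts of called NDRs were taken as kept within 1.5-fold of the main count. The Y' sums held least well, with 79 values moved and 41 kept. For the Y' ratio of long to short signal 22 moved and 27 were kept, and for the X core sums 26 and 88. The causes were not tested beyond what each alternative is built to change. Values as deposited gave Y' sums of -0.44 (long, H4K16Q), 0.74 (long, sth1-2), -0.60 (short, Thiolutin) and 0.30 (short, sth1-2). The telomere rows past 2-fold, with the share of all other rows past it on the same scale, were then 17 in scc2-4 (38.3%), 16 in H4d4-14 (87.9%), 14 in H4R23A (11.9%), 3 in med1d (62.4%) and 1 each in Diamide (11.2%), rtt109d (10.4%) and ssu72-2 (4.26%) in long signal. In short signal they were 0 in sth1-2 (34.8%) and H4d4-14 (1.28%), 9 in scc2-4 (1.65%), 3 in rgr1-100 (1.8%), 2 in top1d (2.07%) and 1 each in H4K16Q (1.45%), rpd3d (2.54%) and rsc8-21 (4.89%). Median-ratio scaling gave Y' sums of -0.73 (long, H4K16Q), -0.77 (short, Thiolutin) and 1.17 (short, sth1-2), with 1 row called in ssu72-2 long and 1 in rtt109d short. The median over Y' rows was 0.87 in sth1-2 long and -0.70 in Thiolutin short, and without the most read row the sums were -0.70 (H4K16Q) and 0.82 (sth1-2) in long signal. At 1.5-fold, with the share of other rows, the long calls were 16 in sth1-2 (16.5%), 14 in H4K16Q (9.59%), 2 in H4d4-14 (12.3%) and rsc8-21 (10.6%), and 1 in Diamide (17.5%), scc2-4 (7.55%) and top1d (9.05%). The short calls were 19 in Thiolutin (5.35%), 6 in rtt109d (2.21%), 5 in H4K16Q (3.84%), 4 in top1d (2.65%), 3 in med1d (2.19%), 2 in rnh201d (0.686%) and 1 in rgr1-100 (0.458%), rpd3d (0.838%) and rsc8-21 (6.64%). With at least 100 reads the long calls in H4K16Q, Thiolutin, med1d, rnh201d and ssu72-2 were 0. With 1 read in each column and a pseudocount of 0.5 the long calls were 10 in sth1-2, 7 in H4d4-14, rtt109d, scc2-4 and top1d, 6 in H4K16Q and rnh201d, 5 in ssu72-2, 4 in Diamide and H4R23A, 3 in med1d, rpd3d and rsc8-21, 1 in rgr1-100 and 0 in Thiolutin, where 3.58% (scc2-4) to 10.6% (Thiolutin) of other rows passed. The mean 2D difference was -0.49 in rtt109d and 0.83 in sth1-2.

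In ssu72-2, 26 of 61 NDRs were called within 10 kb (4.29% of all NDRs). Of the 30 NDRs, 7 were called with DESeq2 (3.63%), 18 without trimmed-mean scaling (3.75%) and 20 without BY4741 replicate 17 (6.03%). On leaving out 1 ssu72-2 replicate, 0 to 16 were called (1.74% to 4.6%). Without trimmed-mean scaling rtt109d had 20, all lower, where 85.1% of all NDRs were called. With the replicate block, 5 were called in ssu72-2, 2 in Thiolutin and 1 in Diamide (2.92%, 2.41% and 2.55% of all NDRs); none was called in the other 7 groups. With the number in the column headers as a block, chosen after seeing the data, 25 were called in ssu72-2, 16 in H4d4-14, 13 in med1d, 7 in rtt109d and 3 in Thiolutin, where 4.66%, 7.41%, 6.91%, 1.83% and 0.714% of all NDRs were called. Samples of 1 header number correlated at -0.16 to 0.45, with 14 of 21 pairs over 0.1 and 3 highest with their own number. Leaving out 1 Thiolutin replicate gave 0 to 1. The share in ssu72-2 was 0.86 with trimmed-mean sizes (adjusted p = 0.186, exact permutation) and 0.75 to 0.99 on leaving out a replicate (adjusted p = 0.0654, exact permutation). The share in rtt109d turned from -0.57 to 0.17 with trimmed-mean sizes. Small shares changed sign too: with trimmed-mean sizes Thiolutin was 0.044 and top1d -0.090; within 10 kb H4R23A was 0.071 and Thiolutin 0.087; without BY4741 replicate 17 they were 0.018 and 0.036; without the ribosomal DNA top1d was -0.082. On leaving out a replicate H4R23A ran from -0.12 to 0.072, Thiolutin from -0.27 to 0.26, rnh201d from -0.27 to 0.16 and top1d from -0.25 to 0.35. Read as named, the 37 °C sheets turn the sign of each long-to-short difference there. X core long signal is limited by depth, with 5 to 32 reads per column outside BY4741.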

Other observations

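Some groups have 1 replicate in the table of NDR-spanning pairs and enter no test of these pairs. The plasmid-borne wild-type histone strain H4-WT had 10398 pairs per 1000000 at the 30 NDRs near Y'-bearing left ends (exact binomial interval 10170 to 10631), H4K16Q 11196 (11010 to 11385), H4Q93E 14534 (14145 to 14931) and the W303 strain 14116 (13961 to 14274). The intervals cover counting error only. H4-WT lay just below the lowest of the 16 BY4741 replicates, at 10538, and the other 3 groups lay inside the BY4741 range. H4-WT, H4K16Q and that lowest BY4741 replicate carry the same header number, 11, and H4K16Q was the highest of them.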
